A study of Saccharomyces cerevisiae with 4 samples.

Results

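PUN1, 3 genes of the Sur7 family (SUR7, FMP45 and YNL194C) and the eisosome core genes PIL1 and LSP1 are described here across 4 arrays of caspofungin-treated and untreated yeast. They are 6 of the 6207 genes listed, taken by their systematic names YLR414C, YML052W, YDL222C, YNL194C, YGR086C and YPL004C. The genes were chosen by their log2 ratios on these 4 arrays, so every ratio of a member below is a description, and none carries a test. Of the 6, 5 had a ratio on all 4 arrays, and YNL194C was blank on all of them.

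Both groups were cultures of a Saccharomyces cerevisiae mid2 mutant of the haploid laboratory strain BY4741, in which a cell surface sensor of wall stress is mutated. The treated part of each culture received caspofungin, an antifungal drug of the echinocandin class that blocks beta-1,3-glucan synthase, at 15 ng/ml for 2 h, and the rest of the culture stayed untreated. Both parts grew in rich medium at 24 °C and both carried the mutation, so no strain with MID2 intact is part of the comparison. RNA of 2 cultures was hybridised to 4 arrays with both samples on each array, caspofungin RNA in Cy5 on arrays 2 and 4 and in Cy3 on arrays 1 and 3.

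Eisosomes are protein scaffolds under the yeast plasma membrane that hold it in short furrows, and Pil1 and Lsp1, a pair of related BAR-domain proteins, build the scaffold. The membrane above them, called the MCC after the arginine permease Can1 that gathers there, holds proteins of the Sur7 family with several membrane spans, and Pun1 lies in the same patches. The MCC stores nutrient permeases and, under membrane stress, releases the Slm proteins that carry signals to the kinase complex TORC2, which sets sphingolipid synthesis. PUN1 is known as a gene induced by damage to the cell wall.

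A positive log2 ratio is read here as more transcript with caspofungin, which is an assumption, since no label states the direction of the deposited ratios, their centring or their scale between arrays. Over the 2925 genes with a ratio on every array, arrays 1 to 4 had medians of -0.10, -0.06, -0.22 and -0.07. Arrays of the same dye orientation correlated across genes with Pearson's r of 0.65 and 0.79, and arrays of opposite orientation with r between -0.15 and 0.14. Genes are not independent replicates. MID2 was blank on all 4 arrays, as were 1806 of the listed genes, so the table does not test the genotype. Of 7 markers of a-cells, the mating type of BY4741, 6 had 4 ratios, while 0 of 4 alpha-cell markers and 0 of 10 sporulation markers did. Of all 6207 listed genes, 2925 did. Ratios on some of the arrays were present for 2 of the alpha-cell markers and 1 of the sporulation markers. A ratio shows how a transcript differs between treated and untreated cells and not how abundant it is.

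PUN1 had the highest ratio of the measured members. Its log2 ratio was 2.06, 1.36, 1.05 and 1.93 on arrays 1 to 4. The 4 ratios lay above 0 by at least 1.05, the highest on array 1 and the lowest on array 3, which both carried caspofungin RNA in Cy3. On the linear scale the ratio was 4.17, 2.57, 2.08 and 3.80 on the same arrays, and the mean log2 ratio of 1.60 ± 0.47 (SD, n = 4 arrays of 2 cultures) corresponds to 3.03-fold. PUN1 was the only member that was at least 2-fold on every array, a count that 14 of the 2925 genes reached (0.479% of them, all with positive ratios). By its mean it ranked 22 among the 2925 genes, and by its lowest ratio 11.

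FMP45, whose product is a Sur7-like membrane protein needed for normal sphingolipid content and for sporulation, was the other member above 0 on every array. Its log2 ratio was 1.31, 1.66, 0.80 and 0.91 on arrays 1 to 4, with a mean of 1.17 ± 0.39 (SD, n = 4), or 2.25-fold. The ratio exceeded 2-fold on arrays 1 and 2 and stayed under it on arrays 3 and 4. FMP45 ranked 36 of 2925 by its mean and 27 by its lowest ratio. So 2 of the 5 measured members, PUN1 and FMP45, stayed positive throughout, where the share over the 2925 genes was 6.87%. Below 0 on all 4 were 0 of the 5, against a share of 19.3% over the whole table.

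SUR7, the gene of the protein that marks the MCC and gave the family its name, had log2 ratios of -1.06, -0.11, -0.60 and 0.40 on arrays 1 to 4. It was lowest on arrays 1 and 3 and above 0 on array 4 alone. The mean was -0.34 ± 0.63 (SD, n = 4 arrays of 2 cultures), a spread larger than the mean, and it was -0.10 without array 1 and -0.59 without array 4. This SD takes in the difference between the dyes. Averaged over 1 array of each dye, the 2 cultures would read -0.58 and -0.10 if arrays 1 and 2 shared a culture. If arrays 1 and 4 did, they would read -0.33 and -0.35. SUR7 ranked 2576 of 2925 by its mean, the only measured member below the median of all genes.

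PIL1, the gene of the main scaffold protein of eisosomes, had log2 ratios of 0.66, 0.08, 0.23 and -0.00130 on arrays 1 to 4. Array 1 gave the highest value and array 4 a value at 0, and the mean of 0.24 ± 0.29 (SD, n = 4) was 0.10 without array 1. Its paralogue LSP1, which encodes the second scaffold protein, had 0.33, 0.12, -0.07 and -0.13, with a mean of 0.06 ± 0.21 that became -0.03 without array 1. Both means were smaller than their spread over arrays. In the same 2 pairings the cultures would read 0.37 and 0.12, or 0.33 and 0.16, for PIL1. For LSP1 they would read 0.23 and -0.10, or 0.10 and 0.03. In rank by mean PIL1 was 273 and LSP1 579 of 2925, so both stood above the median of all genes, which was -0.13.

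**Figure D1:**
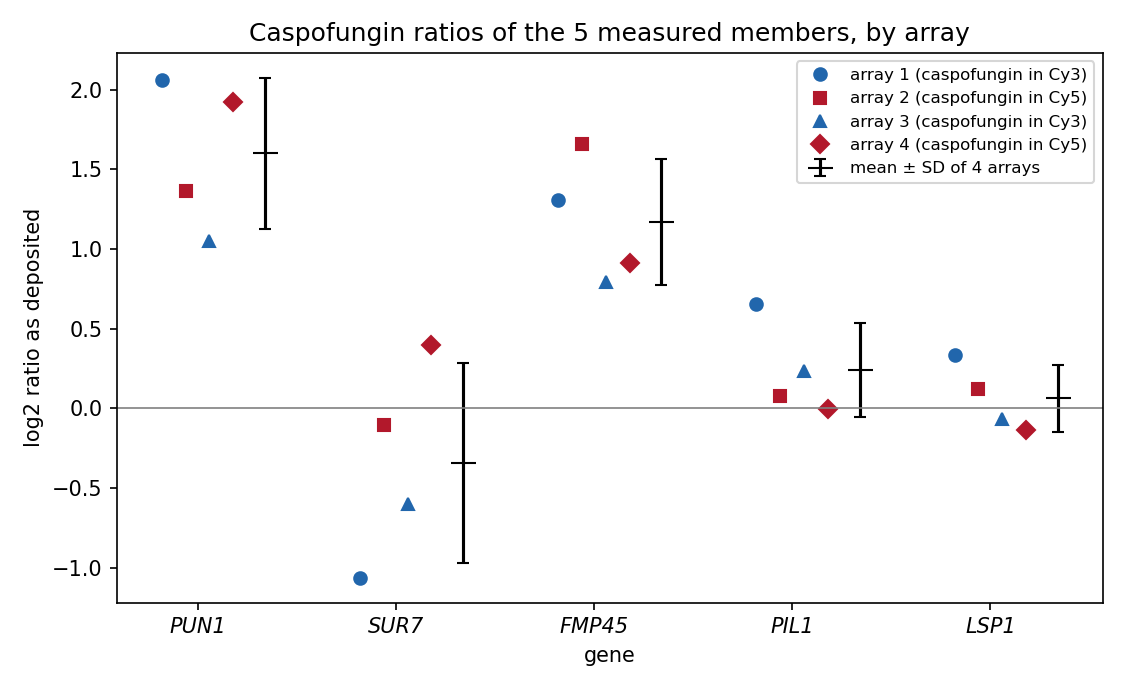
Deposited log2 ratio (vertical axis) of the 5 measured members (horizontal axis) on each of 4 arrays, with symbols for arrays, colour for the dye of the caspofungin RNA, and a bar for the mean ± SD. PUN1 lies between 1.05 and 2.06 and FMP45 between 0.80 and 1.66, while SUR7, PIL1 and LSP1 have values on both sides of 0.

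Differences between members within an array do not depend on how that array was centred, and are differences of log2 ratios, not of levels. In the order of means, PUN1 came first, then FMP45, PIL1, LSP1 and SUR7. PUN1 less FMP45 was 0.75, -0.30, 0.26 and 1.01 on arrays 1 to 4, on average 0.43 ± 0.58, so these neighbours in the order did not differ beyond their spread. FMP45 less PIL1 was 0.65, 1.58, 0.56 and 0.91, on average 0.93 ± 0.46, above 0 on 4 of 4 arrays. This is the 1 step in the order where the mean exceeded the SD and every array had the same sign.

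PIL1 less LSP1 was 0.33, -0.04, 0.30 and 0.13, on average 0.18 ± 0.17, above 0 on 3 of 4 arrays. SUR7 less LSP1 was -1.39, -0.23, -0.53 and 0.53, on average -0.41 ± 0.80. PUN1 and SUR7, whose products share the MCC patches, stood at the ends of the order. PUN1 less SUR7 was 3.12, 1.47, 1.65 and 1.53 on arrays 1 to 4, and its mean of 1.94 ± 0.79 is a 3.84-fold difference between their ratios. FMP45 also lay above SUR7 on every array, with SUR7 less FMP45 at -2.37, -1.77, -1.39 and -0.52. By contrast the paralogous scaffold genes stayed within 0.33 of each other on every array. Such closeness was not particular to this pair. By the root mean square difference over the 4 arrays, 111 genes lay within 0.25 of PIL1 and 348 within 0.25 of LSP1. Whether related genes share signal on these arrays was not tested.

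**Figure D2:**
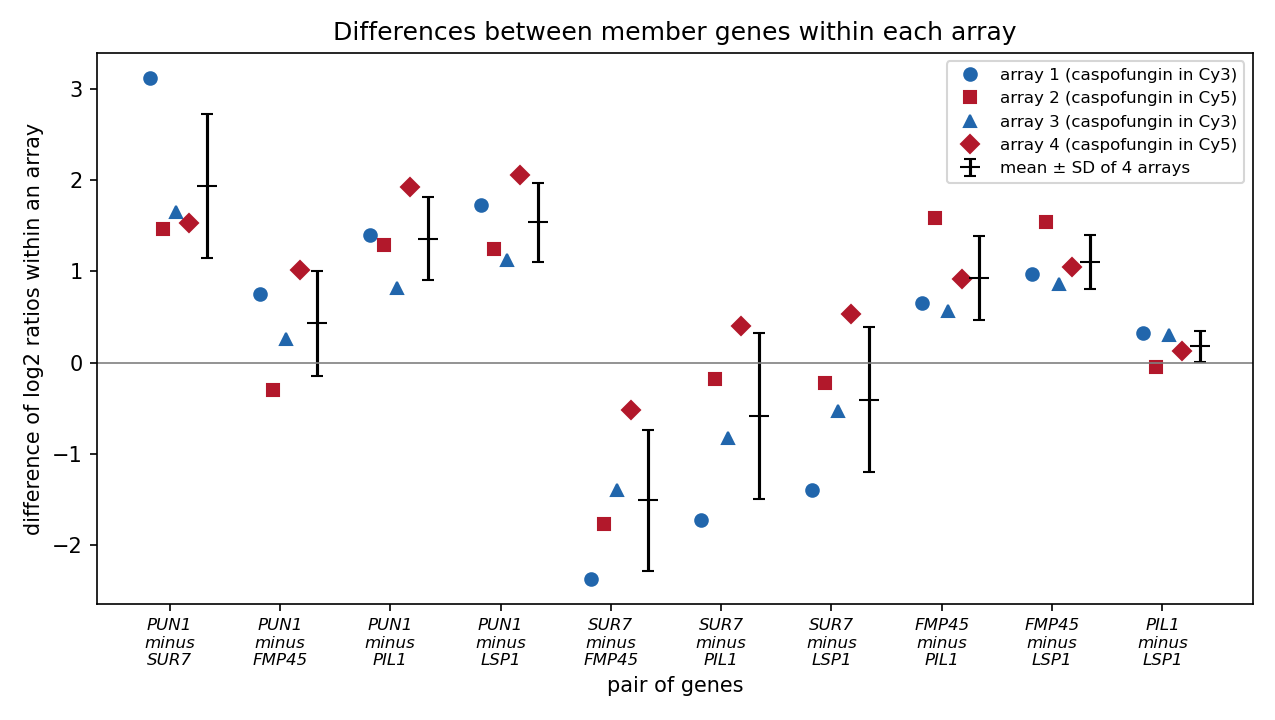
Difference of log2 ratios between each pair of the 5 measured members (horizontal axis) within each of the 4 arrays (vertical axis, log2), with symbols for arrays, colour for the dye of the caspofungin RNA, and a bar for the mean ± SD. PUN1 less SUR7 is lowest at 1.47, on array 2, and PIL1 less LSP1 lies between -0.04 and 0.33.

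The dye swap shows how far each ratio moved with the dye, again as a description of the members. The dye part of a gene is the mean ratio of arrays 2 and 4, with caspofungin RNA in Cy5, less that of arrays 1 and 3, with it in Cy3, divided by 2. For PUN1 those means were 1.64 and 1.56, a dye part of 0.04, small beside its mean of 1.60. For FMP45 they were 1.29 and 1.05, a dye part of 0.12. Neither gene separated by dye: their ratios on arrays 2 and 4 overlapped those on arrays 1 and 3.

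SUR7 had the largest dye part of the members, 0.49, from means of 0.15 in Cy5 and -0.83 in Cy3, and both ratios in Cy5 lay above both in Cy3. That order held for 41% of all genes compared. PIL1 had the opposite order, 0.04 in Cy5 and 0.45 in Cy3, an order shared by 27.8% of all genes, with a dye part of -0.20. LSP1 had a dye part of -0.07. Over the whole table no gene passed for the dye part, 0 of 2925 (0%) by limma with Benjamini-Hochberg adjustment, though 944 (32.3%) had an unadjusted p under 0.05, and 237 passed when each array was centred on its median.

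If the ratios follow the dyes rather than the treatment, the dye part would be the treatment difference and the shared part the dye bias. With the values turned in that way the mean would be 0.04 for PUN1, 0.12 for FMP45, 0.49 for SUR7, -0.20 for PIL1 and -0.07 for LSP1. None of the 5 members (0) would then keep 1 sign on all arrays, where 577 of the 2925 genes would be above 0 and 392 below. Which reading holds cannot be told from the labels, so the position of PUN1 and FMP45 above the other members belongs to the values as deposited.

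**Figure D3:**
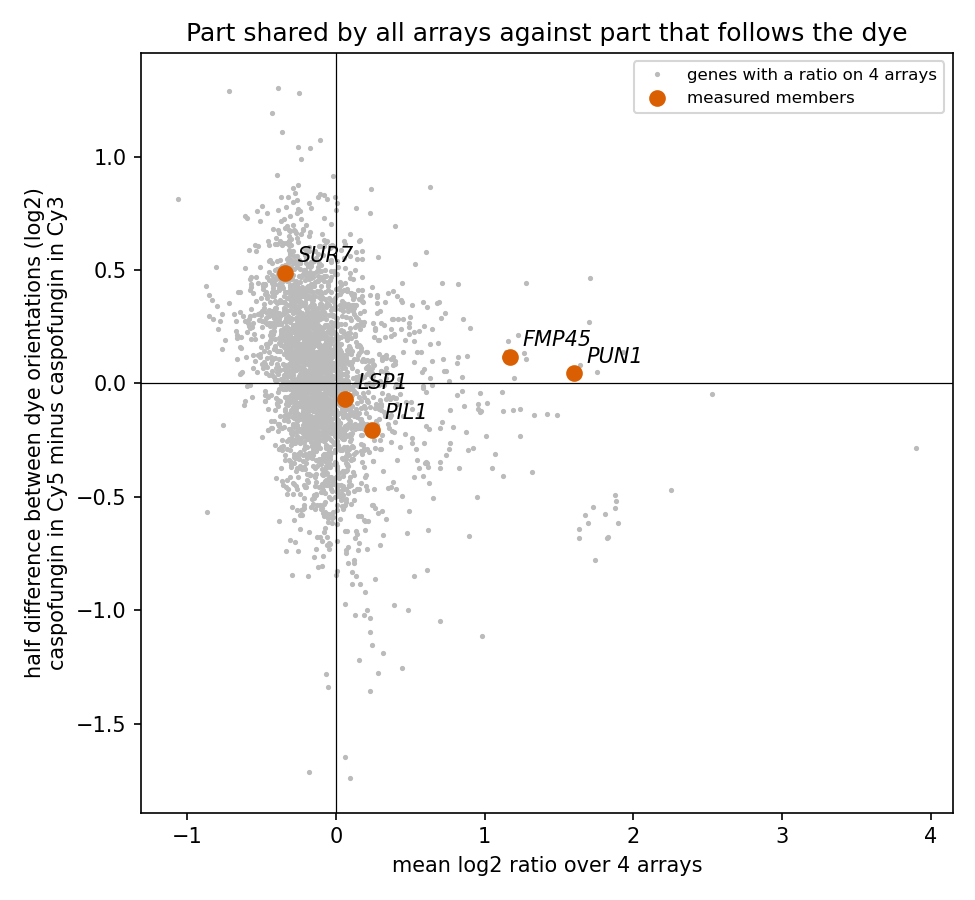
Each of 2925 genes by its mean log2 ratio over 4 arrays (horizontal axis) and its dye part (vertical axis, log2, caspofungin in Cy5 minus caspofungin in Cy3, divided by 2), with the 5 measured members in orange. PUN1 and FMP45 lie far right with dye parts of 0.04 and 0.12, while SUR7 lies left of 0 with a dye part of 0.49.

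The genes whose ratios lay closest to each member were found by the root mean square difference over the 4 arrays (log2), a measure over few arrays that says nothing of shared control. For PUN1 they were NQM1, a transaldolase paralogue (0.32), YHR138C (0.36) and TFS1, an inhibitor of carboxypeptidase Y (0.36). TFS1 is also in the list of general stress markers below. For FMP45 they were PRM5 (0.30), a gene of the cell wall integrity response, YEL074W (0.31) and RGI1 (0.32). No gene (0) lay within 0.25 of PUN1 or of FMP45, whereas 33 did for SUR7, 111 for PIL1 and 348 for LSP1, out of 2924 others. PRM5 itself had 1.09, 1.46, 0.93 and 1.42 on arrays 1 to 4, above 0 on each as FMP45 was.

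SUR7 was closest to YTA7 (0.16), CDC25 (0.17) and SLD3 (0.17), each lowest on array 1. Closest to PIL1 were DCS1 (0.09), PST2 (0.10) and NYV1 (0.10). PST2 encodes a flavodoxin-like protein found in eisosomes, and its ratios were 0.53, 0.04, 0.17 and -0.13. They ran in the same order over the arrays as those of PIL1, but PST2 was picked here for that closeness, which 111 genes shared within 0.25. LSP1 was closest to KTD1 (0.07), YDR109C (0.08) and COS7 (0.09), all with means near 0.

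Next to PUN1 on its chromosome lie INA1 and YLR415C, by gene order in RefSeq assembly R64. INA1 had -0.17, 0.37, -0.40 and 0.21 on arrays 1 to 4, with a mean of 0.00297 ± 0.35 (SD, n = 4). Its ratios were above 0 on both arrays with caspofungin in Cy5 and below 0 on both with it in Cy3, unlike those of PUN1. YLR415C was blank on all 4 arrays.

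Other proteins of eisosomes and the MCC showed no ratio of the size seen for PUN1 and FMP45. Of 10 such genes, 5 had a ratio on all arrays and 5 were blank, beside 29.1% of all genes. Among the blank ones were the eisosome genes SEG1 and EIS1. The median of the 5 means was 0.07, beside -0.13 for all genes, and they ran between -0.01 and 0.15. None (0 of 5) passed the test over all genes in either direction, nor at an unadjusted p under 0.05 (limma), beside 0.0342% of all genes called, which is 1 gene. At the unadjusted threshold 6.84% of all genes were positive and 18.5% negative. The largest means were those of PST2, 0.15 ± 0.28, and NCE102, the gene of a membrane protein that senses sphingolipids, 0.10 ± 0.47. NCE102 read 0.40 and 0.61 with caspofungin in Cy5 (arrays 2 and 4) and -0.22 and -0.38 with it in Cy3 (arrays 1 and 3).

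Among 5 permease genes whose products gather in the MCC, 3 had 4 ratios, and 0 passed in either direction, also at an unadjusted p under 0.05 (limma). At that unadjusted threshold 6.84% of all genes were positive and 18.5% negative. Their median was -0.11, near the -0.13 of all genes, and 0.01 without array 1. FUR4, the uracil permease gene, was below 0 on every array at -0.20, -0.20, -0.85 and -0.49, with a mean of -0.44 ± 0.31. MUP1, a methionine permease gene, had -0.11 ± 0.29 and LYP1, the lysine permease gene, -0.09 ± 0.39. CAN1 had no value on array 1 and read -0.03, -1.35 and 0.03 on arrays 2 to 4.

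The signalling genes that meet at eisosomes were little measured. Of 13 genes of TORC2 and the Slm, Pkh and Ypk proteins, 8 were blank, beside 29.1% of all genes, and 3 had 4 ratios. By limma 0 of the 3 passed in either direction, where 0.0342% of all genes passed. At an unadjusted p under 0.05 (limma) 2 were negative, beside 18.5% of all genes. The 2 were TSC11, a TORC2 subunit gene, with a mean of -0.41 ± 0.34, and LST8, a subunit of both TOR complexes, with -0.41 ± 0.53, which was -0.15 without array 3. SLM1, the gene of a TORC2 effector that leaves eisosomes under membrane stress, had -1.25 and -2.04 on arrays 2 and 4, with caspofungin in Cy5, and 1.55 and 2.11 on arrays 1 and 3, with it in Cy3. Its mean was 0.09 ± 2.05, and its dye part of -1.74 did not pass (limma, adjusted p = 0.0763). If each ratio is turned by its dyes, SLM1 is 1 of 3 genes at least 2-fold lower on every array.

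Sphingolipid genes, which act in the pathway that eisosome signalling sets, had 20 of 29 members with 4 ratios. Their median was -0.21, beside -0.13 for all genes, with 1 above 0 and 3 below 0 on every array, or 5% and 15%, where all genes gave 6.87% and 19.3%. The median was -0.05 without array 3, and turned by the dyes it was 0.24, beside 0.05 for all genes. So turned, 9 were above 0 and 0 below on every array, where 577 and 392 of all 2925 genes were. None (0) passed over all genes, and limma gave an unadjusted p under 0.05 to 1 gene with a positive mean and 5 with a negative one, where all genes gave 6.84% and 18.5%. IPT1, which adds the last head group of the complex sphingolipids, had 0.49 ± 0.35 and was the 1 gene above 0 on all arrays. On array 1 IPT1 was at 0.00259, a value at 0. SCS7, a sphingolipid hydroxylase gene, had -0.48 ± 0.38, and -0.31 without array 3. The list leaned with the dyes: in 13 of the 20, or 65%, both ratios with caspofungin in Cy5 lay above both with it in Cy3, beside 41% of all genes, the order that SUR7 had.

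The ratio of PUN1 lay within the range of the cell wall integrity targets, the genes that the Slt2 kinase controls through the Rlm1 factor. Of 19 such genes without PUN1, 15 had 4 ratios, with a median of 0.63, and 10 were above 0 on every array and 0 below, where all genes gave 6.87% and 19.3%. Turned by the dyes the median was 0.14, with 0 above 0 and 2 below on every array, where 577 and 392 of all 2925 genes were. The list was chosen with earlier results of these data known, so its counts are a description. None (0) passed over all genes, while 11 were positive at an unadjusted p under 0.05 (limma), beside 6.84% of all genes. The largest were NCW2, a wall protein gene, with 1.93 ± 0.25, and CWP1, a wall mannoprotein gene, with 1.71 ± 0.55. NCW2 and CWP1 were the only genes of the list with a higher mean than PUN1 at 1.60, and SED1 and PRM5 also exceeded FMP45 at 1.17.

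General stress markers, targets of Msn2 and Msn4, also lay high, with a median of 0.61 over 12 of 20 genes. Of the 12, 7 were above 0 on every array, beside 6.87% of all genes. This list too was chosen with earlier results of these data known, so its counts are a description. By limma 1 passed over all genes with a positive mean (0.0342% of all genes passed), and 10 were positive at an unadjusted p under 0.05, beside 6.84%. Turned by the dyes the median was 0.05, with 0 above 0 and 2 below on every array, where 577 and 392 of all 2925 genes were. HSP12 was then at -0.28. The gene that passed was HSP12, a small stress protein gene, with 3.90 ± 0.67, followed by RTC3 with 2.53 ± 0.56. PUN1 and FMP45 thus fell within the range of both lists, but so did PIL1 and LSP1. The means ran from -0.03 to 1.93 in the cell wall integrity list and from 0.06 to 3.90 here. The part of general stress in the ratios of PUN1 and FMP45 was not tested. The 5 measured members had a median of 0.24, which is 0.37 above that of all genes and 0.24 above it without array 1. The a-cell markers had a median of -0.36, led by AGA2 with -0.85 ± 0.43 and MFA1 with -0.76 ± 0.29, and 0 of the 6 measured passed, with 4 negative at an unadjusted p under 0.05 (limma), beside 18.5% of all genes. Turned by the dyes that median was 0.15.

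**Figure D4:**
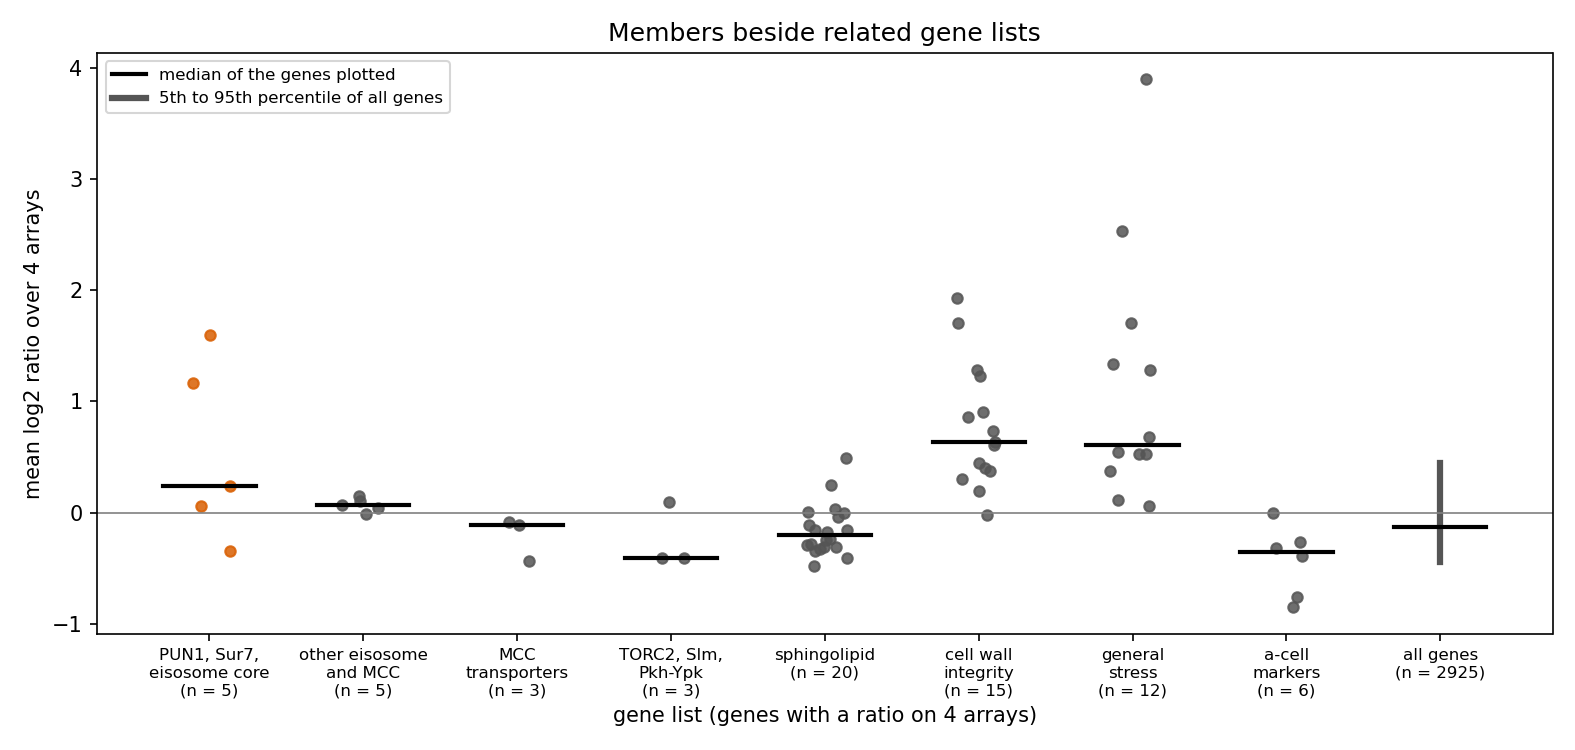
Mean log2 ratio over 4 arrays (vertical axis) of the genes of each list with a ratio on 4 arrays (points), with the list's median as a black line, and at the right the 5th to 95th percentile of all 2925 genes, -0.44 to 0.45. PUN1 at 1.60 and FMP45 at 1.17 lie above that range, and the 5 other eisosome and MCC genes lie inside it.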

How the data were processed

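The values are the log2 ratios that the authors deposited, 1 per gene and array. The base was read from the values: raising 2 to each value gave 4-decimal numbers, to within 2e-06, in 100.0% of cases. The labels name no software, background correction, normalization, blanking rule or genome build (not given in the sources used here). Names came from RefSeq assembly R64 by systematic name (5654 of 6207 matched). The 2 control rows were left out.

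The members and lists were chosen with earlier results of these data known, so the counts given for a list describe it and do not test it. Genes named are the members, the neighbours of PUN1, the 3 genes closest to each member and the 2 largest of each list (all measured genes in lists of 4 or fewer). CAN1, SEG1, EIS1, SED1, DDR48 and the neighbours of other members were named after their values were seen. Means and SDs cover 4 arrays, so an SD takes in the difference between dye orientations as well as that between cultures. All 2925 genes with 4 ratios were fitted with limma 3.58.1 in R 4.3.3 on means of the 2 cultures against 0. Which arrays belong to 1 culture is not labelled, so both pairings of opposite dyes were fitted and the larger p adjusted by Benjamini-Hochberg, with a threshold of 0.05. With 2 cultures the p-values measure a small spread, and the number of arrays limits the precision. Each culture mean joins 1 array of each dye, so the p-values leave out the difference between dyes. A gene whose sign follows the dye can therefore have a small p. DDR48, a general stress marker, had 1.22, -0.19, 1.53 and -0.47 on arrays 1 to 4, with an unadjusted p of 0.00475 (limma). The fit was tested on simulated data. Those data held no difference between cultures, so they do not check the unknown pairing of arrays. Alternatives were centring, scaling, turning by the dye labels, leaving out arrays and each pairing.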

Additional observations from a re-analysis of the deposited data

Results flagged for a closer look

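In sets of 4 arrays, 1 ratio stood far from the other 3 for 3 of the 47 genes and list medians examined, where chance alone gives about 1 in 20, and the 5 measured members gave none (0). The gap of the distant array divided by the whole range was 0.892 for CDC13, the gene next to FMP45, which read 2.20 on array 3 and 0.59 to 0.76 on the others. It was 0.874 for YHR138C, high on array 1 at 1.87 and otherwise 1.23 to 1.32. It was 0.839 for TFS1, low on array 3 at 0.98 and otherwise 1.89 to 2.06. YHR138C and TFS1 were examined because they are among the genes closest to PUN1, so likeness to PUN1 was part of their choice. PUN1 read highest on array 1 and lowest on array 3, while TFS1 was highest on array 2.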

How the results depend on the processing

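With arrays centred, PUN1 had a mean log2 ratio of 1.71 and FMP45 1.28, and with arrays also scaled 1.74 and 1.31. Leaving out each array in turn gave 1.45 to 1.78 for PUN1 and 1.005 to 1.29 for FMP45, and the median of the 5 members less that of all genes ran from 0.24 to 0.45. When ratios were turned by the dye labels, PUN1 was at 0.0440 and that median at -0.00561. Members above 0 on every array were 3 with centring, PIL1 joining. Centring also raised this count over all genes with a ratio on every array, from 201 to 321. Genes past the limma threshold, 1 in the values as deposited, were 10 with centring and 48 with scaling. They were 148 when only the pairing of arrays 1 and 4 as 1 culture and 2 and 3 as the other was fitted. Turned by the dye labels 0 passed (944 at an unadjusted p under 0.05), and among genes on at least 3 arrays 0 passed (680 unadjusted). Genes past the threshold ran from 1 to 61 without 1 array, with 61 without array 1 and 56 without array 3. Leaving out 1 array leaves 1 culture with a single dye orientation. The dyes are then unbalanced in these counts and in every mean or median given without an array. For the dye part, 0 became 237 with centring and 590 with scaling. It became 485 when only the pairing of arrays 1 and 2 as 1 culture and 3 and 4 as the other was fitted. Causes were not tested. No paired analysis was possible because the ratios form 1 group, so no replicate numbers are shared between groups. Each ratio already pairs treated with untreated RNA on its array.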

Other observations

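Genes beside the other members were examined after their values were seen. CDC13, which encodes a telomere-binding protein and lies next to FMP45, was above 0 on every array at 0.64, 0.76, 2.20 and 0.59 (mean 1.05 ± 0.77, and 0.66 without array 3). HBT1, on the other side of FMP45, had -0.01 ± 0.20. GAL80, beside SUR7, had -0.63, 0.19, -0.76 and -0.00202 on arrays 1 to 4, lowest on arrays 1 and 3 as SUR7 was. RPL11B, beside PIL1, had -0.16 ± 0.40. Both neighbours of YNL194C were blank on all 4 arrays, as YNL194C was.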
